A study of Mus musculus with 12 samples.

Results

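Acute blood loss was compared with the normal state in Ter-119+ erythroid cells of the mouse spleen, across all genes of an immunology panel. Of the 12 deposited samples, 7 were compared: Acute blood loss 1 to 4 and Normal 1 to 3. Normal 4 was left out, because in each of the 561 genes its raw count was exactly 3 above the median of Normal 1, 2 and 3. The donors were adult male F1 mice of a CBA by C57BL/6 cross, aged 3 to 5 months. In the blood loss group 0.5 to 0.8 mL was drawn behind the eye (retro-orbital sinus) under isoflurane, and the normal group was kept under standard conditions. All spleens were taken on day 3. A density gradient and magnetic beads carrying an antibody to Ter-119 enriched the cells, and RNA came from 500000 cells per sample. The 4 hypoxia samples of the same study (16 h in a hypobaric chamber, the same mouse cross and cell selection) entered the fit to share its estimate of the spread. The labels do not tie samples to animals, so a p-value here reflects how far samples of a group differ, and part of that spread may be technical.

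The mouse spleen is a site of stress erythropoiesis. When red cells are lost, erythropoietin drives early progenitors there to expand and mature into erythroblasts, which take up iron through the transferrin receptor and load it into haem. Ter-119 marks erythroid cells from the erythroblast stage onward, and a bead enrichment for it can carry along leukocytes of the spleen, which express most of the genes on an immunology panel. In bulk RNA of this kind, fewer cells of a type and less RNA per cell cannot be told apart.

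Raw counts per probe were summed to totals of 43956, 161054 and 253712 in Normal 1, 2 and 3, and of 15550, 21251, 7016 and 31006 in Acute blood loss 1 to 4. The blood loss samples were thus the shallowest, and 63 to 199 of the 547 endogenous genes reached a raw count of 20 in them, against 216 to 380 in the normal samples. The lowest deposited count is 1, and 14 to 154 genes stood at it in a blood loss sample, against 136, 20 and 15 in Normal 1, 2 and 3. Levels below are housekeeping-scaled counts (raw counts divided by a sample factor from 6 housekeeping genes), listed in the order of the replicate numbers. Testing was limited to the 252 genes with a raw count of at least 20 in 4 or more of the 11 samples fitted. Of 6 erythroid markers 4 were on the panel and 3 were tested. Their summed scaled count, most of it Tfrc, ran from 124 to 158 in normal and from 270 to 572 in blood loss samples. That of 6 B cell markers ran from 1519 to 2916 and from 926 to 1869. Transcripts of B cell markers were thus counted alongside those of erythroid markers in every sample, and which cells they came from was not tested. Globin genes are not among the markers used here.

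Because the groups differ in depth, each gene was fitted under 7 scalings: the 6 housekeeping genes, TMM factors, median-of-ratios size factors over the tested genes or over all genes, all 14 housekeeping genes, 5 housekeeping genes without Rpl19, and the total count. With the 6 housekeeping genes 25 genes were called higher after blood loss (9.92% of those tested) and 43 lower (17.1%), by edgeR's quasi-likelihood test at a Benjamini-Hochberg adjusted p under 0.05. Across the scalings the number called higher ran from 13 to 39 and the number called lower from 32 to 114. The median log2 fold change over the 252 genes moved with them, from −0.63 with size factors over all genes to 0.05 with TMM factors, and it was −0.24 with the 6 housekeeping genes. No gene was called higher under one scaling and lower under another (0 of 252). All 7 scalings called the same 13 genes higher (5.16%) and the same 32 lower (12.7%), and most of these 45 genes are described first. When each sample of the 3 groups was left out in turn, the numbers called under all scalings ran from 9 to 19 higher and from 14 to 33 lower. The lower number dropped to 19 when Normal 2 was left out, to 18 when Normal 3 was and to 14 when Acute blood loss 4 was. In every leave-out 10 of the 13 higher genes and 18 of the 32 lower genes were called with the 6 housekeeping genes. Cd28, Ctsg and Tal1 among the higher genes and Emr1, Ptgs2 and Thy1 among the lower ones reached a count of 20 in exactly 4 samples, so they went untested when any of those was left out and were called in the others. The other 11 lower genes are named below with the sample whose absence ended the call. Of the 32 lower genes 7 reached a count of 20 in no blood loss sample: Ccl5, Ccrl2, Cd3d, Emr1, Ifi35, Ptgs2 and Thy1. Their levels after blood loss rest on raw counts under 20, and with the filter of 4 samples they could not be tested among the 7 samples alone. Emr1, Ptgs2 and Thy1 reached that count in 3 normal and 1 hypoxia samples, so their calls are no support for a list. After all samples were thinned to the lowest total of 7016, 12 genes were called higher and 21 lower under all scalings. With the 6 housekeeping genes, the lower genes that then lost the call included Cd55 (log2 fold change −0.81), H2-Ob (−0.98), Irf8 (−1.06), Blnk (−0.84), Ifi35 (−1.12) and Ly86 (−0.89).

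**Figure D1:**
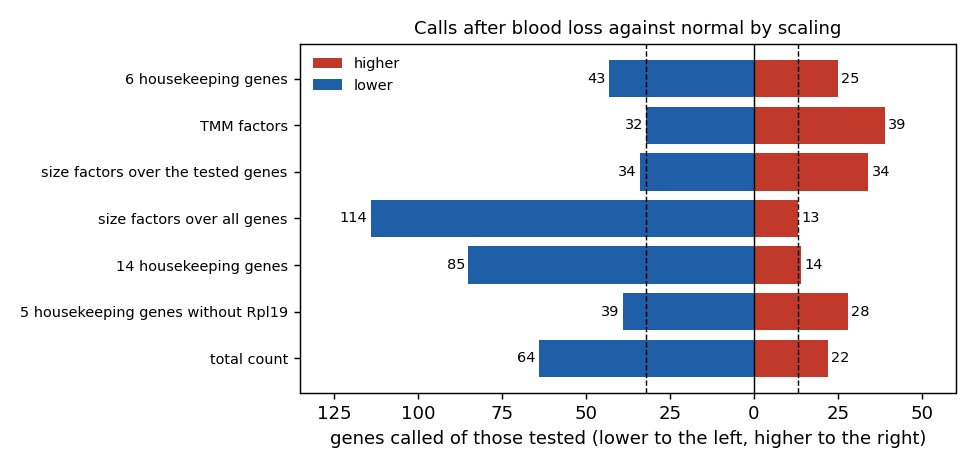
Number of the 252 tested genes called lower (bars to the left) and higher (bars to the right) after blood loss under each of 7 scalings, with dashed lines at the 32 lower and 13 higher genes shared by all 7. Size factors over all genes gave 114 lower and 13 higher calls, and TMM factors 32 and 39.

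Of 6 tested genes of erythroid cells, progenitors and iron handling, 3 rose (Tfrc, Tal1 and Cd36) and 1 fell (Cd55) under all 7 scalings, and 2 were not called. Over all tested genes 5.16% rose and 12.7% fell under all 7. The median log2 fold change of the 6 listed genes was 1.43 against −0.24 for all tested genes. Tfrc, the transferrin receptor, had scaled counts of 128, 143 and 116 in the normal samples and of 507, 232, 467 and 378 after blood loss. The groups did not overlap, and Acute blood loss 2 was the lowest of its group. The log2 fold change was 1.61 (SE 0.39, adjusted p = 0.00315), and between 1.20 and 1.90 over the scalings. Tal1, a transcription factor that erythroid progenitors need, stood at 3.39, 3.39 and 2.26 against 36.9, 20.4, 59.3 and 52.0. These levels rest on raw counts of 3, 11 and 14 in normal and of 12, 8, 8 and 37 in blood loss samples, and every blood loss sample was above every normal sample after scaling (log2 fold change 3.82, SE 0.84, adjusted p = 0.00496). Tal1 reached a count of 20 in 1 blood loss and 3 hypoxia samples and in no normal sample. It thus passed the filter only through groups in which it was high, and could not be tested among the 7 samples alone, so its call is no support for the list. Cd36, a fatty acid and scavenger receptor present on erythroid progenitors, platelets and macrophages, stood at 52.0, 83.5 and 68.4 against 178, 137, 267 and 160.3. All 4 blood loss samples lay above the highest normal sample (log2 fold change 1.39, SE 0.32, adjusted p = 0.00236).

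Cd55, which protects red cells and leukocytes from complement, fell from 199, 458 and 341 to 151, 140.0, 185 and 143. The 4 blood loss samples were close together and below all normal samples, and the log2 fold change was −1.13 (SE 0.30, adjusted p = 0.00589). Normal 2 was the highest, and without it the call was lost (log2 fold change −0.83, adjusted p = 0.0641). Abcb10, a mitochondrial transporter of erythroid cells, had 3.39, 9.55 and 4.37 in normal and 24.6, 5.09, 7.42 and 23.9 in blood loss samples, so the groups overlapped and the test was not passed (log2 fold change 1.48, adjusted p = 0.141). Kit, the stem cell factor receptor of early progenitors, was not tested, with raw counts of at most 12 in the 7 samples.

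Granulocyte genes split. Camp and S100a9, which encode contents of mature neutrophils, and Ctsg, a protease of the azurophil granules made at the promyelocyte stage, rose, while Cebpb, a transcription factor of myeloid cells, fell. Camp stood at 26.0, 92.8 and 70.8 against 547, 283, 326 and 530.0, a difference of 2.71 on the log2 scale (SE 0.38, adjusted p = 1.61e-05). All 4 blood loss samples lay far above the highest normal sample, and raw counts were 23 or more in all 7 samples. Ctsg stood at 2.26, 1.54 and 1.62 against 67.7, 22.9, 37.1 and 40.8. This difference of 4.59 on the log2 scale (SE 0.50, adjusted p = 2.88e-07) was the highest of the genes called under all scalings, from raw counts of 2, 5 and 10 against 22, 9, 5 and 29. Ctsg reached a count of 20 in 2 blood loss and 2 hypoxia samples and in no normal sample, so it too passed the filter only through groups in which it was high and was not testable in the 7 samples alone.

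S100a9, one chain of the calprotectin dimer, stood at 1178, 847 and 549 in normal and at 4383, 1769, 3137 and 3134 in blood loss samples (log2 fold change 1.86, SE 0.49, adjusted p = 0.00589). Its partner S100a8 did not pass the test, with 554, 1397 and 1128 against 2051, 982, 1416 and 1513 (log2 fold change 0.54, adjusted p = 0.341). The raw ratio of S100a9 to S100a8 was 2.13 in Normal 1 and 1.80 to 2.21 in the blood loss samples, but 0.607 and 0.487 in Normal 2 and Normal 3. Cebpb fell from 121, 249 and 214 to 101, 73.8, 37.1 and 47.8, with no overlap (log2 fold change −1.56, SE 0.32, adjusted p = 0.00103). The raw ratio of Camp to Cebpb, which needs no scaling, was 0.215, 0.372 and 0.331 in normal and 5.39, 3.83, 8.80 and 11.1 in blood loss samples. As both genes were already apart in opposite directions, this ratio had to be apart and only describes the size. The list of 7 tested granulocyte genes had a median log2 fold change of 0.23, with 2 higher and 1 lower (up to 2 lower under another scaling), and Ctsg is not one of its tested members. Over all tested genes 9.92% were higher and 17.1% lower with the 6 housekeeping genes. The summed scaled count of 6 granulocyte markers ran from 1764 to 2394 in normal and from 3057 to 7025 in blood loss samples. Of these 6 markers 3 were tested. S100a9 and S100a8 made up most of the sum in every sample, so it does not show that all 6 rose. The part of neutrophils among the selected cells in these changes was not tested.

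Single genes of costimulation, adhesion and innate signalling were also among those that rose. Under all 7 scalings these were 1 of 7 tested costimulatory and checkpoint ligands (Cd86) and 1 of 15 integrin and adhesion genes (Icam1). Of 26 genes of NF-kappaB and Toll-like receptor signalling 1 rose (Tbk1), where 5.16% of all tested genes did. Cd86, a ligand of CD28 on antigen-presenting cells, stood at 55.4, 44.1 and 33.3 in normal and at 86.1, 137, 245 and 129 in blood loss samples. Acute blood loss 3, the shallowest sample, was the highest, and the groups did not overlap (log2 fold change 1.72, SE 0.36, adjusted p = 0.00103). Icam1, an adhesion molecule bound by leukocyte integrins, had 7.91, 13.9 and 8.08 against 52.3, 40.7, 59.3 and 39.4. The 4 blood loss samples were close together and each was above all normal samples (log2 fold change 2.16, SE 0.40, adjusted p = 0.000388). Plaur, the urokinase receptor, stood at 192, 257 and 236 against 295, 845, 615 and 564 (log2 fold change 1.34, SE 0.34, adjusted p = 0.0053). Acute blood loss 1 was only a little above Normal 2, and with size factors over all genes the log2 fold change was 0.89.

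Tbk1, a kinase that activates interferon regulatory factors, rose from 14.7, 24.0 and 19.7 to 46.1, 76.4, 96.4 and 52.0. The groups did not overlap, and the log2 fold change was 1.67 (SE 0.32, adjusted p = 0.000503). Stat4, which carries the interleukin-12 signal, stood at 4.52, 6.47 and 4.69 against 30.8, 61.1, 51.9 and 36.6 (log2 fold change 3.03, SE 0.38, adjusted p = 2.61e-06). Its raw counts in the blood loss samples were 10, 24, 7 and 26. The groups did not overlap here either. Cd28, the receptor of CD86 on T cells, overlapped, with 9.04, 18.5 and 8.57 against 15.4, 30.5, 37.1 and 36.6. Its call (log2 fold change 1.27, SE 0.40, adjusted p = 0.0208) rests on raw counts of 5, 12, 5 and 26 after blood loss. It was lost when a background was subtracted (1.18, adjusted p = 0.0525) and when all samples were thinned to the lowest total (1.32, adjusted p = 0.224).

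**Figure D2:**
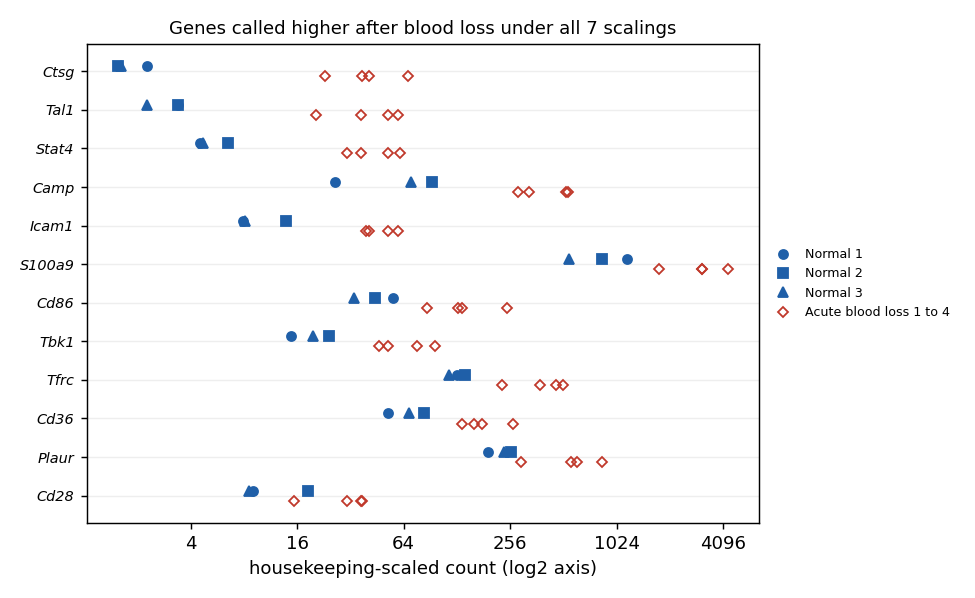
Housekeeping-scaled counts (log2 axis) of 12 of the 13 genes called higher after blood loss under all 7 scalings, with 1 point per sample for Normal 1 to 3 and Acute blood loss 1 to 4. In 11 of these every blood loss point lies to the right of every normal point, and Cd28 is the exception.

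A further 12 genes were called higher with the 6 housekeeping genes but not under every scaling. Among 26 tested genes of NF-kappaB and Toll-like receptor signalling, 4 rose and 2 fell, where 9.92% of all tested genes rose and 17.1% fell. The list median was 0.14, and over the scalings 1 to 6 rose and 1 to 8 fell. Nfkbia, the inhibitor that NF-kappaB itself induces, stood at 101, 221 and 167 against 319.9, 311, 408 and 264 (log2 fold change 0.97, adjusted p = 0.0208), and it was called higher under 5 scalings. Its call was lost without Normal 1 (0.72), Normal 3 (0.98) or Acute blood loss 3 (0.86), and after thinning (0.41). Irak2, a kinase of Toll-like receptor signalling, stood at 48.6, 57.6 and 48.2 against 64.6, 122, 185 and 74.5, also called under 5 scalings (log2 fold change 1.02, adjusted p = 0.0304) and not called without Normal 2 (1.11) or 3 (0.98), nor without sample 2 (0.92) or 3 (0.75) of the blood loss group. Of the 7 tested costimulatory and checkpoint ligands, Cd86, Cd80 and Cd274 rose with the 6 housekeeping genes, and over the scalings 1 to 3 rose and 0 to 2 fell. Cd274, which encodes PD-L1, stood at 91.5, 189 and 169.6 against 268, 326, 319 and 219, with no overlap and calls under 5 scalings (log2 fold change 0.89, adjusted p = 0.0289). Leaving out Normal 1 (0.64) or Normal 3 (0.98), or sample 2 (0.80) or 3 (0.83) of the blood loss group, ended the call. Prim1, a subunit of the primase that starts DNA synthesis, stood at 13.6 to 18.2 in the normal samples against 27.7, 35.6, 51.9 and 32.3 (log2 fold change 1.13, adjusted p = 0.0289), with calls under 5 scalings that were lost without Normal 3 (1.09) or without sample 2 (1.12), 3 (1.01) or 4 (1.18) of the blood loss group.

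Genes of MHC class II presentation moved unequally. Class II molecules are pairs of an alpha and a beta chain that carry peptides to CD4 T cells, with Cd74 as the chaperone, the H2-O and H2-M pairs as editors and cathepsin S as the protease that trims the chaperone. Of 9 tested genes 4 fell under all 7 scalings and up to 7 under another, where 12.7% of all tested genes fell under all of them. The list median was −0.80. The promoter windows of 2 that fell, H2-Eb1 and H2-Ob, and of H2-Aa, which was not called, are shown because the class II genes share a conserved promoter with a Y box. They run from 250 bases before to 50 bases after the gene start, in the direction of the gene (RefSeq, GRCm38.p6). The capitals mark the Y box core ATTGG (or CCAAT on the other strand) and the GATA motifs AGATAA and TGATAA (or TTATCT and TTATCA). H2-Eb1 lies at chr17:34305617-34305916 (plus strand), H2-Ob at chr17:34238655-34238954 (plus strand) and H2-Aa at chr17:34287774-34288073 (minus strand).
H2-Eb1: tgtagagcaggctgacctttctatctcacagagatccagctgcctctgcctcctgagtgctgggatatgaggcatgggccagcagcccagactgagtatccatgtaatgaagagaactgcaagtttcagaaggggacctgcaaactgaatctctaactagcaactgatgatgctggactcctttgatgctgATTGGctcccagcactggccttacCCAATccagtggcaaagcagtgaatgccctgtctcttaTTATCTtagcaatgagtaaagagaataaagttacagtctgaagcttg
H2-Ob: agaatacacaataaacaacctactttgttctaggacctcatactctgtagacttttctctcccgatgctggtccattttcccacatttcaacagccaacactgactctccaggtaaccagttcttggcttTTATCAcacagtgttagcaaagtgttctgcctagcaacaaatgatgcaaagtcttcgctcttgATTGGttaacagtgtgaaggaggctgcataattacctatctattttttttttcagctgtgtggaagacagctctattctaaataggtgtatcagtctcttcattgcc
H2-Aa: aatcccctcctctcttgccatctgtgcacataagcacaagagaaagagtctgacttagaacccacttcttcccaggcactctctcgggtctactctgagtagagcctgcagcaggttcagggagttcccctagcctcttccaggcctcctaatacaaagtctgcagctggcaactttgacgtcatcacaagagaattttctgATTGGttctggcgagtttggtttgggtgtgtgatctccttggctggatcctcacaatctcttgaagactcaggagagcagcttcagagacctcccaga
The Y box core stood in all 3 windows, and in 37.4% of the 32851 mouse promoter windows of this length. A GATA motif stood in the windows of H2-Eb1 and H2-Ob, and in 18.6% of all windows. Of the genes called under all scalings, 33 were matched to a window. The Y box core was present in 3 of 10 higher and 8 of 23 lower genes, a GATA motif in 2 of 10 and 3 of 23, and CACCC, a motif bound by erythroid Kruppel-like factors, in 8 of 10 and 13 of 23 (57.5% of all windows). A match is a description of letters only.

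H2-Eb1, the beta chain of the I-E molecule, stood at 993, 1561 and 1021 in normal and at 458, 598, 356 and 306 in blood loss samples. All blood loss samples were below all normal ones, from raw counts of 48 or more (log2 fold change −1.47, SE 0.33, adjusted p = 0.00209). Next, H2-Ob, a chain of the H2-O editor of B cells, fell from 162, 238 and 228 to 52.3, 84.0, 89.0 and 90.0 (log2 fold change −1.42, SE 0.29, adjusted p = 0.00103). Ctss, which encodes cathepsin S, fell from 301, 398 and 321 to 135, 178, 74.2 and 90.0, again with no overlap (log2 fold change −1.48, SE 0.29, adjusted p = 0.000709). H2-Ab1, the beta chain of I-A, stood at 1527, 197 and 161 against 83.0, 137, 104 and 94.2, so Normal 1 set most of the difference of −2.57 on the log2 scale (SE 0.64, adjusted p = 0.01). Without Normal 1 that value was −0.77 (adjusted p = 0.0291), and in a fit of only the 7 samples the call was lost (−2.57, adjusted p = 0.118).

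The most abundant class II genes went with Normal 1 as well. H2-Aa stood at 4659, 679 and 592 in normal and at 3432, 5658, 3003 and 3367 in blood loss samples, and Cd74 at 4723, 669 and 612 against 5650.0, 6203, 4613 and 3697. In both, Normal 1 lay at the level of the blood loss samples and the groups overlapped, so neither passed the test (adjusted p = 0.238 and 0.117). Without Normal 1 both were called higher, at log2 fold changes of 2.61 and 2.98, which rest on Normal 2 and 3 alone. Cd74 made up 9.51% of the total count in Normal 1, 8.48 to 11.8% in the blood loss samples and 9.34 to 12.5% in the hypoxia samples. In Normal 2 and 3 it made up 1.35 and 1.49%, so for Cd74 these 2 samples stood apart from all others fitted. The raw ratio of H2-Eb1 to Cd74 was 0.210, 2.33 and 1.67 in normal and 0.0811, 0.0964, 0.0772 and 0.0829 in blood loss samples. Every blood loss sample was below every normal sample, Normal 1 included, though the size of the difference depends on which normal sample is used.

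Of 11 tested genes of MHC class I presentation and the proteasome, 2 fell under all scalings and up to 5 under another, where 12.7% of all tested genes fell under all of them. The list median of −0.28 was near that of all tested genes. H2-K1, a class I heavy chain, stood at 525, 730.4 and 558 against 301, 191, 282 and 195, with no overlap (log2 fold change −1.34, SE 0.28, adjusted p = 0.00112). Bcap31, a membrane protein that sorts class I molecules out of the endoplasmic reticulum, stood at 73.5, 129 and 110.4 against 58.4, 58.5, 37.1 and 45.0 (log2 fold change −1.05, SE 0.32, adjusted p = 0.0179). Its call was lost without Normal 2 (−0.87), Normal 3 (−1.01) or Acute blood loss 4 (−0.97), and after thinning (−0.88).

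Among 18 tested B cell genes 4 fell under all 7 scalings, against 12.7% of all tested genes, and 14 were not called with the 6 housekeeping genes. The median log2 fold change was −0.59, and the number that fell ran from 4 to 12 over the scalings. Cd79b, a signalling chain of the B cell receptor, stood at 363, 685 and 508 against 154, 209, 193 and 271, with no overlap (log2 fold change −1.31, SE 0.29, adjusted p = 0.00188). Ms4a1, which encodes CD20, stood at 624, 1064 and 997 against 289, 565, 467 and 418 (log2 fold change −1.05, SE 0.33, adjusted p = 0.0208). Ms4a1 was no longer called when Normal 2 (−0.90) or Normal 3 (−0.96) was left out, nor without sample 1 (−0.89) or 4 (−1.03) of the blood loss group. Cxcr5, the receptor that guides B cells to follicles, stood at 111, 199 and 162 against 40.0, 81.4, 81.6 and 64.7 (log2 fold change −1.27, adjusted p = 0.0168). The blood loss samples were again all below the normal ones, but the call was lost without Normal 2 (−1.07) and without sample 1 (−1.09) or 4 (−1.26) of the blood loss group. Blnk, the adaptor below the B cell receptor, overlapped, with 102, 220.0 and 202 against 67.7, 127, 81.6 and 75.9. Its log2 fold change of −0.99 (adjusted p = 0.0174) no longer passed without Normal 2 (−0.80) or 3 (−0.88), nor without sample 1 (−0.88) or 4 (−0.90) of the blood loss group.

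In the T cell list 6 of 15 tested genes fell and 1, Cd28, rose with the 6 housekeeping genes, against 17.1% and 9.92% of all tested genes. Over the scalings 3 to 9 fell. The median log2 fold change was −0.77. Under all 7 scalings 3 fell: Cd3d, Tcf7 and Thy1. Cd3d, a chain of the T cell receptor complex, stood at 65.5, 56.7 and 45.3 against 6.15, 33.1, 7.42 and 12.7 (log2 fold change −1.78, SE 0.41, adjusted p = 0.00236). Its raw count was 1 to 13 after blood loss, at the lowest deposited value in Acute blood loss 3, and the log2 fold change was −2.47 when Acute blood loss 2, the highest of the group, was left out. Tcf7, a transcription factor of naive T cells, fell from 144, 98.0 and 76.1 to 30.8, 33.1, 51.9 and 29.5 (log2 fold change −1.62, SE 0.37, adjusted p = 0.00195). Thy1, a surface protein of T cells, fell from 64.4, 38.8 and 35.7 to 15.4, 15.3, 14.8 and 15.5 (log2 fold change −1.55, SE 0.37, adjusted p = 0.00315). The groups did not overlap in these 3 genes. Thy1 reached a raw count of 20 in 3 normal, 0 blood loss and 1 hypoxia samples, so it passed the filter mainly through the group in which it was high. Lck, the kinase that starts T cell receptor signalling, was called lower under 6 scalings, but not without Normal 1 (−0.84) or sample 1 (−0.98) or 4 (−0.99) of the blood loss group. Cd4, the coreceptor for class II, and Cd5, a regulator of the receptor signal, were called lower under 4 scalings each. Cd4 was tested in only 7 of the leave-outs and called in 4 of these. It was not called without sample 2 (−1.25), 3 (−1.08) or 4 (−1.01) of the blood loss group. In the remaining leave-outs Cd4 went untested, so they do not show that its call held. Cd5 was not called when any of the 7 samples other than the last of the blood loss group was left out (−1.31 to −0.96). The 8 T cell markers summed to 282 to 488 in normal and 148 to 252 in blood loss samples, so these values move with Cd28 in the opposite direction, and whether Cd28 came from T cells was not tested.

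Ltb, the membrane anchor of lymphotoxin made by B and T cells, had among the clearest falls, from 157, 329 and 292 to 36.9, 102, 66.7 and 59.0 (log2 fold change −1.98, SE 0.33, adjusted p = 0.000182). Tagap, a GTPase-activating protein of activated T cells, fell from 241, 256 and 208 to 67.7, 84.0, 96.4 and 68.9 (log2 fold change −1.60, SE 0.34, adjusted p = 0.0013). Arhgdib, a regulator of small GTPases found across blood cells, fell from 617, 747 and 673 to 225, 344, 200.2 and 202 (log2 fold change −1.48, SE 0.28, adjusted p = 0.000581). In each of these 3 genes all blood loss samples were below all normal samples. Cd164, a sialomucin of blood progenitors, fell least, from 337, 407 and 349 to 188, 249, 200.2 and 164 (log2 fold change −0.87, adjusted p = 0.0177). Its call was lost without Normal 2 (−0.78) or Acute blood loss 4 (−0.77). Ptprc, which encodes CD45 and is common to leukocytes, stood at 457, 579 and 515 against 261, 461, 349 and 250.2, and was called lower under 3 of the 7 scalings (log2 fold change −0.65, adjusted p = 0.0811 with the 6 housekeeping genes).

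Of 10 tested genes of Fc receptors and ITAM signalling 3 fell with the 6 housekeeping genes, against 17.1% of all tested genes, and 3 to 8 fell over the scalings. The median log2 fold change was −0.61. Tyrobp, the DAP12 adaptor of myeloid and NK cell receptors, stood at 264, 578 and 442 against 159.9, 96.7, 252 and 87.2 (log2 fold change −1.62, SE 0.33, adjusted p = 0.00103). Acute blood loss 3 was just below Normal 1, the lowest normal sample. Ptpn6, which encodes the phosphatase SHP-1, stood at 214, 334 and 277 and was even after blood loss, at 98.4, 102, 111 and 95.6 (log2 fold change −1.45, SE 0.31, adjusted p = 0.00112). Emr1, which encodes the macrophage protein F4/80, stood at 45.2, 82.6 and 71.0 against 27.7, 10.2, 22.2 and 25.3 (log2 fold change −1.65, SE 0.42, adjusted p = 0.0053), from raw counts of 3 to 18 after blood loss. With the 6 housekeeping genes it was the only one of 7 tested macrophage and monocyte genes called, while over the scalings 1 to 3 of them fell and up to 1 rose. Its call was lost after thinning (−1.13). The summed scaled count of the macrophage markers overlapped, at 120 to 289 in normal and 127 to 218 in blood loss samples.

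Of 9 tested inflammatory mediators 3 fell with the 6 housekeeping genes (Il1b, Ptgs2 and Il16), against 17.1% of all tested genes. Over the scalings 3 to 4 fell and up to 1 rose. The median log2 fold change was −0.62. Il1b, which encodes interleukin-1 beta, stood at 52.0, 326 and 272 against 86.1, 35.6, 44.5 and 39.4 (log2 fold change −2.11, SE 0.56, adjusted p = 0.0146). Ptgs2, the inducible cyclooxygenase, stood at 24.9, 74.6 and 79.2 against 12.3, 28.0, 14.8 and 11.2 (log2 fold change −1.91, SE 0.44, adjusted p = 0.00242). Ccrl2, a receptor that holds chemerin at the cell surface, stood at 20.3, 108 and 96.5 against 24.6, 12.7, 29.7 and 11.2 (log2 fold change −2.20, SE 0.62, adjusted p = 0.0183). In each of these 3 genes Normal 1 lay within the range of the blood loss samples, so the groups overlapped, and the call of Ccrl2 was lost without Normal 2 (−1.88) and after thinning (−1.49). Il1r2, the decoy receptor of interleukin-1, did not overlap, at 103, 231 and 159.7 against 95.3, 94.2, 59.3 and 45.0 (log2 fold change −1.18, adjusted p = 0.01). Its call was lost without Normal 2 (−0.86) or Acute blood loss 4 (−0.95). Il16, a cytokine that attracts CD4 cells, fell from 88.1, 122 and 97.5 to 58.4, 53.4, 37.1 and 43.6 (log2 fold change −1.07, adjusted p = 0.0103), a call lost without Normal 2 (−0.93). Ly86, the partner of the Toll-like protein RP105, overlapped at 185, 423 and 296 against 138, 188, 193 and 115 (log2 fold change −0.96, adjusted p = 0.0192), and lost its call without Normal 2 (−0.64) or Acute blood loss 4 (−0.82).

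Ccl5, a chemokine of T and NK cells, was even in normal samples, at 111, 115 and 101, and stood at 40.0, 35.6, 14.8 and 7.03 after blood loss (log2 fold change −2.20, SE 0.40, adjusted p = 0.000355). Of 9 tested chemokines and receptors 4 fell and 1 rose with the 6 housekeeping genes, against 17.1% and 9.92% of all tested genes. Over the scalings 3 to 6 fell. Among 12 tested interferon factors and interferon-induced genes 5 fell and 1 rose with the 6 housekeeping genes, against the same shares of all tested genes. The median log2 fold change was −0.61. Over the scalings 3 to 8 fell and up to 1 rose. Irf8, a transcription factor of B cells, monocytes and dendritic cells, fell from 108 to 138 in the normal samples to 64.6, 50.9, 37.1 and 49.2 (log2 fold change −1.24, SE 0.29, adjusted p = 0.00265). Ifi35, an interferon-induced protein, overlapped by Acute blood loss 3, with 40.7, 65.3 and 49.0 against 18.5, 17.8, 44.5 and 23.9 (log2 fold change −1.15, adjusted p = 0.0155). Its call was lost without Normal 2 (−0.94) and without sample 2 (−1.02) or 4 (−1.17) of the blood loss group.

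**Figure D3:**
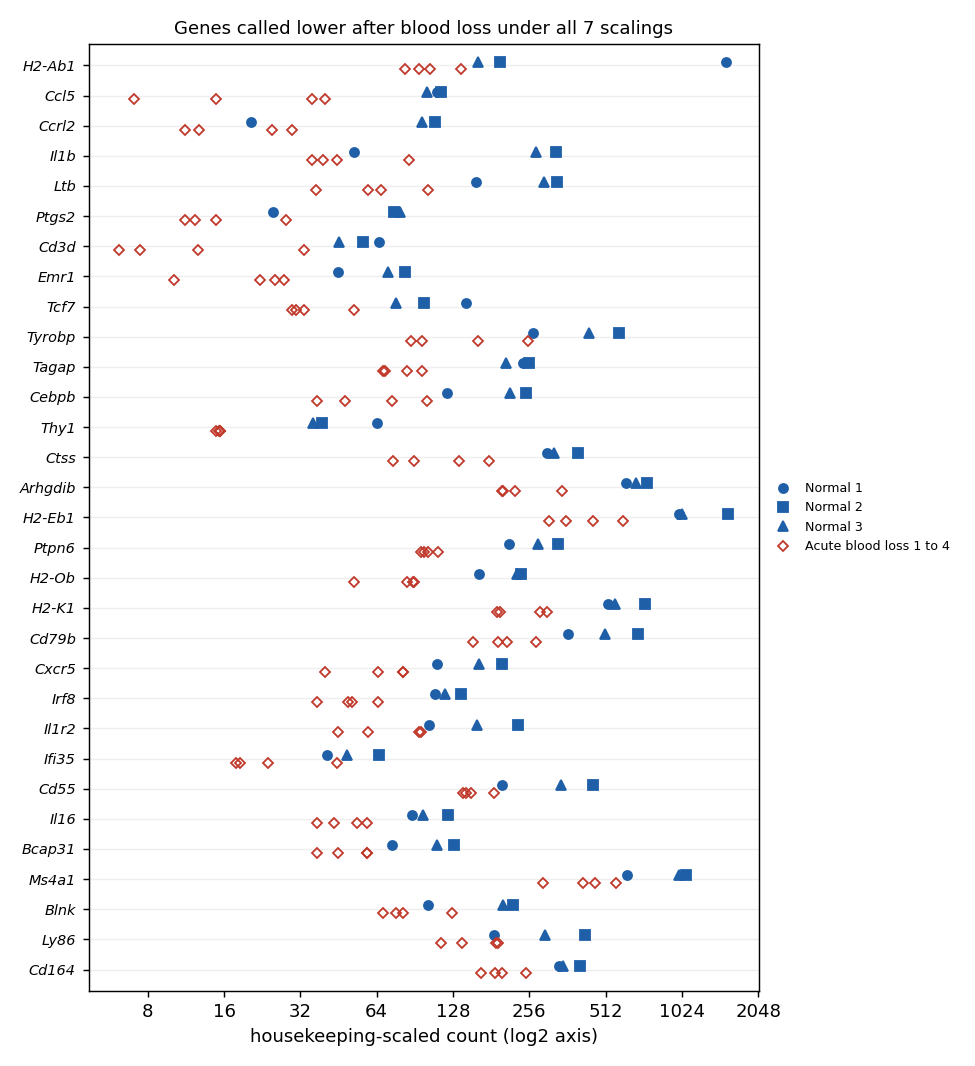
Housekeeping-scaled counts (log2 axis) of 31 of the 32 genes called lower after blood loss under all 7 scalings, with 1 symbol for each of Normal 1 to 3 and open diamonds for Acute blood loss 1 to 4. In 25 of these every diamond lies to the left of every normal symbol, and Normal 1 (circles) is at or below the highest diamond in Ccrl2, Il1b, Ptgs2, Blnk, Ly86 and Ifi35.

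The gene lists differed in how their tested members were spread. Among the 21 lists with at least 3 tested members, the highest median was that of the erythroid, progenitor and iron genes, and the lowest that of MHC class II presentation. The 7 tested genes of TGF-beta and SMAD signalling were not called with the 6 housekeeping genes, with a median log2 fold change of 0.41, and up to 2 were called higher and up to 3 lower under another scaling. With the 6 housekeeping genes, 2 of 15 tested integrin and adhesion genes rose and 1 of 12 tested genes of cell death and survival, shares near the 9.92% of all tested genes. Under another scaling up to 6 genes of the first list and up to 2 of the second fell. Of 23 tested genes of MAP kinases, calcium signalling and transcription factors, Arhgdib alone was called with the 6 housekeeping genes, where 17.1% of all tested genes fell. Over the scalings 1 to 10 fell and up to 1 rose. The lists share genes, and each is described by its counts and median only.

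**Figure D4:**
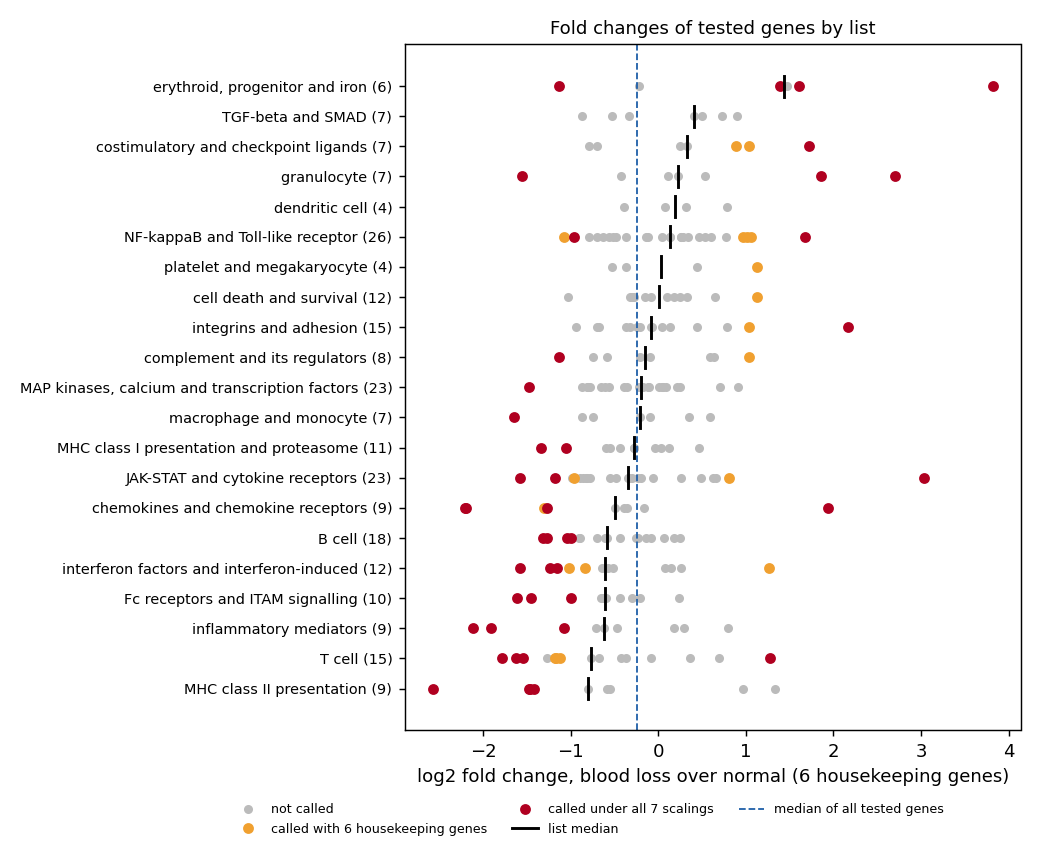
Log2 fold change of blood loss over normal for each tested gene (points) in the 21 gene lists with at least 3 tested members, with the list median (black bar), the number tested in brackets and the median of all tested genes (dashed line, −0.24). Red points were called under all 7 scalings, orange points with the 6 housekeeping genes but not under all 7, and grey points were not called.

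Comparisons within a sample need no scaling factor. Over all tested genes the scaled counts of the groups did not overlap in 27.4%, and the ranks within a sample did not overlap in 28.6%. Among the genes called under all scalings the groups were apart in 12 of 13 higher genes (11.5% of all tested genes were higher and apart) and in 26 of 32 lower genes (15.9%), and the ranks in 13 of 13 and 25 of 32. These genes were called on the same counts, so their share reads as a description. Camp moved from ranks of 194, 109.5 and 120 in normal to 9, 28, 25 and 12 in blood loss samples, where 1 is the most abundant tested gene. Tfrc moved from 56, 74 and 78.5 to 13, 31, 14.5 and 17. Relative to Ptprc in the same sample, the raw ratio of Tfrc was 0.280, 0.246 and 0.224 in normal and 1.94, 0.503, 1.34 and 1.51 in blood loss samples, and that of Camp was 0.0569, 0.160 and 0.138 against 2.09, 0.613, 0.936 and 2.12. Both ratios were higher in every blood loss sample. The ratio of Ms4a1 to Ptprc overlapped, at 1.37, 1.84 and 1.94 against 1.11, 1.23, 1.34 and 1.67, as did that of Tyrobp to Ptprc. The ratio of Cd86 to Cd79b was 0.153, 0.0643 and 0.0656 in normal and 0.560, 0.659, 1.27 and 0.477 in blood loss samples. The scaled counts of both genes were already apart between the groups, in opposite directions. Their ratio thus had to be apart as well and is a description only.

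Some of the housekeeping genes were not steady. After scaling, Tubb5, a tubulin chain, stood at 10.2, 34.2 and 23.1 in normal and at 141, 66.2, 81.6 and 67.5 in blood loss samples, and Hprt, a purine salvage enzyme, at 9.04, 12.9 and 8.57 against 46.1, 25.5, 22.2 and 32.3. Neither was among the 6 used for the factors, and both were higher in every blood loss sample. The 6 were not even either. Without Rpl19 the factor of Normal 2 was 4.03 instead of 3.24, and that of Normal 1 was 0.795 instead of 0.885. The scaled counts of Normal 2 given here are thus higher, and those of Normal 1 lower, than with the 5 other genes. With factors from all 14 housekeeping genes the median log2 fold change of the tested genes was −0.51, against −0.24 with the 6, and which of the added genes moved it was not tested.

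Blood loss was set directly against hypoxia in the same fit. The difference itself leaves out the normal samples, but they still entered the filter and the estimate of the spread. With the 6 housekeeping genes 21 genes were higher after blood loss than after hypoxia (8.33% of those tested) and 1 was lower (0.397%), and over the 7 scalings these numbers ran from 1 to 21 and from 1 to 96. Of the 13 genes that rose under all scalings, 5 were also higher than after hypoxia with the 6 housekeeping genes: Icam1, Ctsg, Cd28, Tbk1 and Plaur. Under the other scalings this number ran from 1 to 5. Plaur was among them under 2 of the 7 and Tbk1 under 4, and with size factors over all genes or with 14 housekeeping genes Icam1 alone remained. Icam1 was so under all 7 scalings, with 3.94 to 15.7 scaled counts in the 4 hypoxia samples against at least 39.4 after blood loss (log2 fold change 2.09, adjusted p = 0.00219). Ctsg stood at 7.99 to 21.6 after hypoxia, just below the lowest blood loss sample (log2 fold change 1.68, adjusted p = 0.00721), and Plaur at 162 to 354, overlapping the blood loss samples (1.12, adjusted p = 0.0254). Tfrc did not pass this test, and its 184 to 642 after hypoxia enclosed the blood loss samples (log2 fold change 0.33). Of the 32 lower genes 0 differed from hypoxia in edgeR's test with the 6 housekeeping genes, and 5 had an unadjusted p under 0.05. Under the other scalings the number lower after blood loss than after hypoxia ran from 1 to 18. The 18 came from size factors over all genes, while TMM factors gave 3 (Blnk, H2-Eb1 and Irf8). Irf8 was among them under every scaling except the 6 housekeeping genes. It was the only one with 14 housekeeping genes, without Rpl19 or by the total count. The DESeq2 Wald test called 1 of the 32 lower and 1 higher.

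Of the 547 endogenous genes 295 were not tested, and 160 of these had a raw count under 20 in all 11 samples. The filter of 4 samples cannot pass a gene seen only in the 3 normal samples, and 13 genes reached a count of 20 in each of these and in no other sample. These 13 were chosen for that pattern, so their values are a description with no test. Ccl9, a chemokine of macrophages, had raw counts of 53, 419 and 634 in normal and 10, 11, 2 and 9 in blood loss samples. Ccr2, the receptor that brings monocytes into tissue, had 66, 259 and 433 against 7, 12, 5 and 13, and Csf1r, the receptor macrophages depend on, had 36, 242 and 369 against 15, 13, 3 and 10. Itgax, the gene of the dendritic cell integrin CD11c, had 25, 82 and 106 against 3, 11, 1 and 10. The normal samples were also deeper than the blood loss samples, so these raw counts do not by themselves show a higher scaled level than after blood loss. Against hypoxia this holds for Normal 2 and 3 only, as the total of Normal 1 (43956) was below those of the hypoxia samples (44254 to 81370). The scaled counts of Itgax and Csf1r overlapped between the normal and blood loss groups. Not all of the 13 genes went down after scaling. In a fit with the filter at 3 samples, Ccr9 (log2 fold change 0.96), Cd14 (0.74) and Fasl (0.27) had positive values, and the others negative ones.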

How the data were processed

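The authors deposited raw counts, whole numbers of at least 1, for 561 panel genes in 12 samples, measured with a NanoString immunology panel for the mouse (nCounter), per the labels' protocols. They also deposited a normalized count signal and a table of log2 values of it plus a constant, which were used here only to check the counts. Handling of background and control probes is not given in the sources used here. All deposited columns were mapped to a sample (0 were not). Groups came from the condition in the labels.

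Raw counts of 11 samples were fitted with edgeR 4.0.16 in R 4.3.3 (quasi-likelihood test, robust, group as the only term), with factors from the geometric mean of 6 housekeeping genes (Eef1g, Gapdh, Oaz1, Polr2a, Ppia and Rpl19), those averaging 100 raw counts or more. Genes needed a count of 20 in 4 samples, and calls an adjusted p under 0.05 (Benjamini-Hochberg over 252 genes). DESeq2 1.42.0 was an alternative. Counts are as deposited, and errors are SE from the fit. The genes named are all those called under 7 scalings, the called genes with the highest and lowest fold changes, the members of each list with the lowest p (at most 4), and set genes. Some of these are not reported here. The samples, genes, lists and tests were chosen with earlier results of these data known. Among 26 alternatives were other filters, scalings, a replicate block and leaving out each sample. Replicate numbers were not used to pair the samples in the main fit. The deviations of same-numbered normal and blood loss samples correlated at −0.06, −0.10 and 0.12, and those of unlike numbers at −0.16 to 0.14. With so few samples these values cannot exclude a pairing. The fit was tested on simulated counts.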

Additional observations from a re-analysis of the deposited data

Results flagged for a closer look

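In 4 of 59 genes followed, 1 blood loss sample stood apart from the other 3 by more than the 95% critical value of Dixon's test, which chance passes in about 1 in 20 groups. Arhgdib was at 344 scaled counts in Acute blood loss 2 and at 200.2 to 225 in the others. H2-Ob was at 52.3 in Acute blood loss 1 and at 84.0 to 90.0 in the others. Tcf7 was at 51.9 in Acute blood loss 3 and at 29.5 to 33.1 in the others. H2-Aa was at 5658 in Acute blood loss 2 and at 3003 to 3432 in the others. The first 3 genes were called lower with and without that sample.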

How the results depend on the processing

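With the 6 housekeeping genes 25 genes were called higher and 43 lower, and 13 and 32 under all 7 scalings. Higher calls came to 39 with TMM factors, 13 with size factors over all genes, 14 with all 14 housekeeping genes, 183 with no filter, 15 in a fit of only the 7 samples, 16 after background subtraction and 12 after thinning to the lowest total. Lower calls numbered 114 with size factors over all genes, 85 with all 14 housekeeping genes, 73 with all 12 deposited columns and 26 after thinning. Under all 7 scalings 144 were higher and 55 lower with no filter, 7 were higher in the fit of only the 7 samples and 21 were lower after thinning. With no filter, genes at the lowest count of 1 are scaled up in the shallow samples. Leaving out 1 sample at a time gave 13 to 30 higher and 20 to 58 lower calls, and 9 to 19 and 14 to 33 under all scalings. With a replicate block 23 were higher and 41 lower, and 12 and 24 under all scalings. The call of Cd28 was lost with it (log2 fold change 1.09, adjusted p = 0.0735 by edgeR). Of the 45 genes called under all scalings 12 higher and 17 lower were called in every alternative in which they were tested, and none of the 45 changed direction. Depth limits genes with raw counts near 20, and the shallowest sample had a total of 7016.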
